A study of Mus musculus with 7 samples.

Results

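The genes described here are 10 that move or sense calcium when the mammary gland makes milk, out of 37310 genes counted. They are the plasma membrane pumps *Atp2b1*, *Atp2b2* and *Atp2b4*, the Golgi pumps *Atp2c1* and *Atp2c2*, the ER pump *Atp2a2*, the entry channel *Orai1* and its sensor *Stim1*, the calcium-sensing receptor *Casr* and the hormone gene *Pthlh*. They were chosen by name for their place in calcium transport, and each was found once in the table by its symbol. RNA was sequenced from mammary glands of C57BL/6 mice at lactation day 1, from 3 WT libraries and 4 libraries labelled *Tardbp* KO. Both genotypes carry the WAP-Cre transgene, whose whey acidic protein promoter is active from mid-pregnancy in luminal epithelial cells (WT being *Tardbp* wt/wt with WAP-Cre). The KO mice are *Tardbp* fl/fl with WAP-Cre, a design that removes exons 2 and 3 of the gene of TDP-43 in those cells. The RNA came from the whole gland, which also holds myoepithelial, fat, stromal and immune cells in which Cre is not driven.

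Calcium enters the secretory cell from the blood side, largely through ORAI1, which is opened by STIM1 when the store of the ER is low. SERCA2 (*Atp2a2*) fills the ER, the SPCA pumps (*Atp2c1* and *Atp2c2*) load the Golgi, where casein micelles take up calcium, and PMCA2 (*Atp2b2*) in the apical membrane exports calcium straight into milk. PMCA2 is switched on with lactation and lost at weaning, and mice without it make milk that is poor in calcium. The calcium-sensing receptor and PTHrP (*Pthlh*), which the lactating gland releases into the blood and into milk, tie this transport to the calcium drawn from the mother's skeleton.

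Counts were scaled with edgeR's TMM factors, which allow for a few very abundant mRNAs, and levels are given as CPM, the count scaled to a fixed library size. Library totals ranged from 36007737 to 42811337 counts. Genes of caseins, *Wap* and *Lalba* took 26.3% to 34.0% of the counts in WT libraries and 12.7% to 21.8% in KO libraries. The total of *Tardbp* itself did not separate the genotypes (log2 fold change 0.01, adjusted p = 0.982 in the quasi-likelihood (QL) test of edgeR), and a count per gene does not show whether exons were removed, so the genotypes are those of the labels. Across genes, the log2 CPM of WT replicate 2 correlated with KO replicates 4 and 2 at Pearson's r of 0.977 and 0.974. Its r was 0.972 with WT replicate 3, 0.964 with WT replicate 1, and 0.956 and 0.951 with KO replicates 3 and 1. In squared count differences over counting noise, averaged over genes, its nearest library was WT replicate 3 (127), then KO replicate 4 (133). The summed level of 8 luminal epithelial markers was 1730 to 2707 CPM in WT and 2682 to 3688 CPM in KO libraries, and that of 10 lymphocyte markers was 28.6 to 41.4 CPM in WT and 318, 54.2, 429 and 92.3 CPM in KO replicates 1 to 4.

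TDP-43 binds RNA at runs of UG, and the longest such run in the longest annotated transcript is given here for genes on which the results turn, to set their sequence beside their levels. A run was counted from 3 UG units, written TG in the genome. The sequences are from assembly NCBIM37, are read 5′ to 3′ on the sense strand, and have the run in capitals. The first pair comes from sister genes, exon 4 of *Atp2b1* (chr10:98449598-98449627, plus strand) and exon 4 of *Atp2b2* (chr6:113763932-113763961, minus strand), both coding. The third is coding sequence in exon 14 of *Atp2c2* (chr8:122268238-122268267, plus strand), and the last is in the 3′ UTR of *Orai1*, in exon 2 (chr5:123480039-123480068, plus strand).
Atp2b1: cttgtcggtggTGTGTGTGgtgttggtgac
Atp2b2: ctgtcagtcatcTGTGTGgtcctggtcaca
Atp2c2: cggagaagggacTGTGTGccttctgccatc
Orai1: tgtgtgcgTGTGTGTGTGTGTGagagagaa

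*Orai1* thus has a run of 7 units, and 5.04% of the 15112 tested genes with an annotated protein-coding transcript have one at least as long. The longest run of *Atp2b2* and of *Atp2c2* has 3 units, a length that 71.5% of these genes reach, and that of *Atp2b1* has 4, a length that 23.4% reach. The transcript of *Pthlh* (1603 nucleotides) holds no run of 3 or more. Over all these genes the median longest run was 3. Summed over runs, *Atp2a2*, whose groups overlapped, holds more units (26 in 8 runs, the longest of 4) than *Orai1* (19 in 4 runs). *Atp2c1*, whose groups also overlapped, holds 10 units in 3 runs, the longest of 4. Within the whole gene span, introns included, *Atp2b2* (296.9 kb) has 17 runs of at least 10 units, a count not set against span length. Its longest run there has 27 units, a length that 8.20% of the 17175 tested genes reach. The longest is 31 in *Atp2b1* (1.69%), 29 in *Pthlh* (3.81%), 22 in *Atp2c2* (28.3%) and 7 in *Orai1* (60.1%). In *Atp2b4*, whose groups overlapped, it is 26 (11.3%). The percentages over gene spans were likewise not set against span length. All of these are counts of letters and not of bound sites.

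The apical pump gene *Atp2b2* (ENSMUSG00000030302, NCBIM37 chromosome 6, 113695663 to 113992607, minus strand) was much lower in the KO libraries. In WT replicates 1 to 3 it had 312, 82.8 and 177 CPM, while KO replicates 1 to 4 had 16.5, 7.73, 2.25 and 7.95 CPM. Every KO library lay below every WT library, and the WT libraries themselves spread widely, with replicate 2 lowest. The mean was 191 ± 115 CPM in WT (SD, n = 3) and 8.62 ± 5.90 CPM in KO libraries (SD, n = 4), and the log2 fold change was −4.47 (standard error, SE, 0.650, 95% interval −5.94 to −3.00), a level 22.2-fold lower. Of the 17175 genes tested, none had a lower log2 fold change. After Benjamini-Hochberg adjustment over all genes its p was 0.0517 in the QL test, where it ranked 22nd by p. With edgeR's exact test the adjusted p was 1.68e-08 and with DESeq2 it was 5.33e-11. In tissue RNA, fewer cells of a type and less RNA per cell cannot be told apart. With libraries scaled to the luminal markers the log2 fold change of *Atp2b2* was −5.25 (adjusted p = 0.00942, QL test). That scaling moved the median of all genes from 0.05 to −0.60. Less the median, *Atp2b2* stood at −4.65, against −4.52 under TMM. Without one library at a time its log2 fold change under TMM lay between −5.00 and −3.92, with an adjusted p from 0.0149 to 0.242 (QL test). Within lane 4, the only lane with both genotypes (1 WT and 2 KO libraries, hence no test), it was −4.03.

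A gene was called where its adjusted p was under 0.01 and its log2 fold change was past 1 in either direction. With these limits the QL test called 0 of the 9 members tested and 0% of all genes. At an unadjusted p under 0.05 it took in 4 members, 3 lower (*Atp2b2*, *Pthlh* and *Orai1*) and 1 higher (*Atp2b1*), against 21.4% of all genes, and the same 4 had an adjusted p under 0.1, against 5.43% of all genes (3.22% lower and 2.21% higher). No member had an adjusted p under 0.05, against 0.00582% of all genes. The exact test of edgeR, at these limits, called *Atp2b2* and *Pthlh*, both lower, against 2.48% of all genes in either direction and 1.44% lower, and DESeq2's Wald test called the same pair, against 3.31%. The groups did not overlap for these 4 genes, with 3 KO groups below WT and 1 above, against 9.62% and 9.07% of all genes. The median log2 fold change of the 9 members was −0.36, and that of all genes tested was 0.05.

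**Figure D1:**
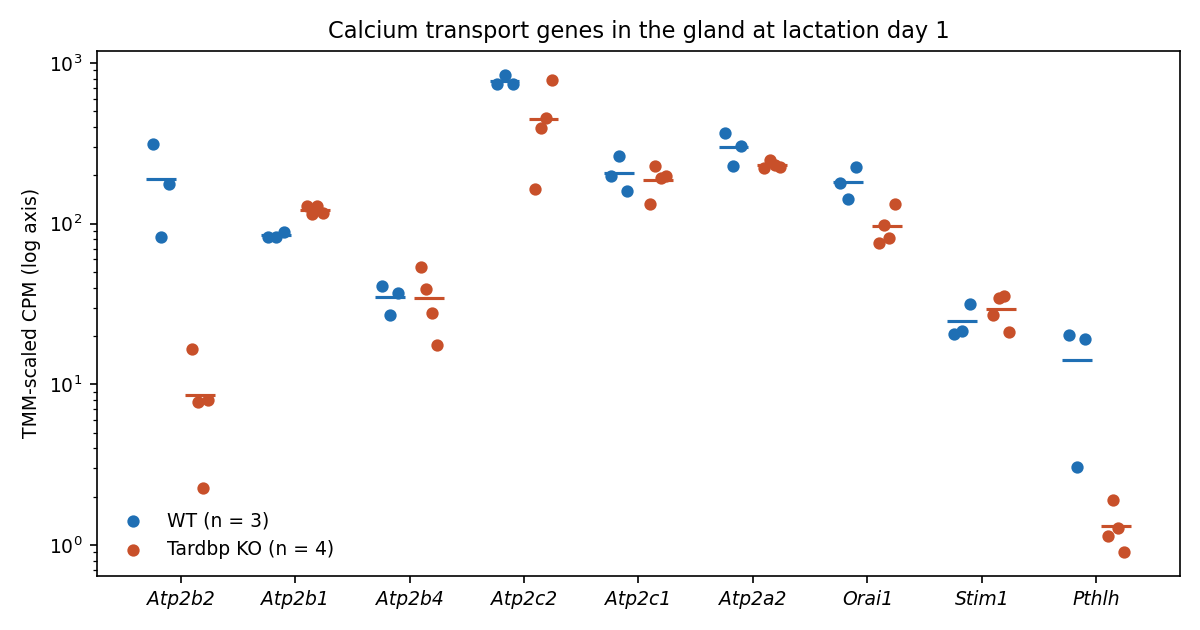
TMM-scaled CPM (log axis) of 9 members in the 3 WT (blue) and 4 *Tardbp* KO (orange) libraries. Each point is a library and each bar a group mean. *Atp2b2* and *Pthlh* lie lowest in the KO libraries relative to WT, and *Casr*, with 4 counts in all, is not drawn.

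The other pumps of the plasma membrane had no such low KO levels. *Atp2b1* (ENSMUSG00000019943, chromosome 10, 98377786 to 98488777), the housekeeping pump found in most cells, had 82.6, 82.5 and 88.2 CPM in WT and 128, 114, 129 and 116 CPM in KO libraries. All KO libraries lay above all WT libraries, by a log2 fold change of 0.53 (SE 0.125, adjusted p = 0.0848, QL test). The log2 fold change was 0.90 with library size alone and −0.13 with libraries scaled to the luminal markers, but these scalings moved the median of all genes from 0.05 to 0.42 and to −0.60. Less that median, *Atp2b1* stood at 0.48, 0.48 and 0.46 under TMM, library size and luminal scaling. *Atp2b4* (chromosome 1, 135599255 to 135697618), another broadly expressed pump, had 41.0, 27.1 and 36.9 CPM in WT and 53.8, 39.0, 28.0 and 17.6 CPM in KO libraries. The KO values spanned the WT range on both sides (log2 fold change −0.02, 95% interval −0.78 to 0.75).

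To compare genes of different length, levels were set per kb of all annotated exons. For *Atp2b2* these sum to 10774 bases, against 7067 in its longest annotated protein-coding transcript, and for *Atp2b1* to 7145 against 7130. Set by transcript length, the share of *Atp2b2* would be higher in every library. Per kb of exon, *Atp2b2* made up 64.2%, 34.6% and 50.0% of the summed level of these 3 pump mRNAs in WT replicates 1 to 3. In KO replicates 1 to 4 it made up 6.04%, 3.41%, 0.979% and 3.90%. The share of *Atp2b1* was 38.4% ± 13.1 (SD, n = 3) in WT and 79.2% ± 7.25 (SD, n = 4) in KO libraries. The log2 ratio of *Atp2b2* to *Atp2b1* was 1.32, −0.59 and 0.41 in WT and −3.54, −4.48, −6.42 and −4.46 in KO libraries. Such a ratio within a library does not depend on the scaling factor. The difference of the group means was −5.11. Its 2-sided exact permutation p was 0.0286, the smallest that 3 libraries against 4 allow. After Benjamini-Hochberg adjustment over the 3 ratios tested it was 0.0429. All KO libraries lay below WT for *Atp2b2* and above WT for *Atp2b1*, so this ratio had to separate the groups. Its p is therefore no further support beside the values of the single genes.

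**Figure D2:**
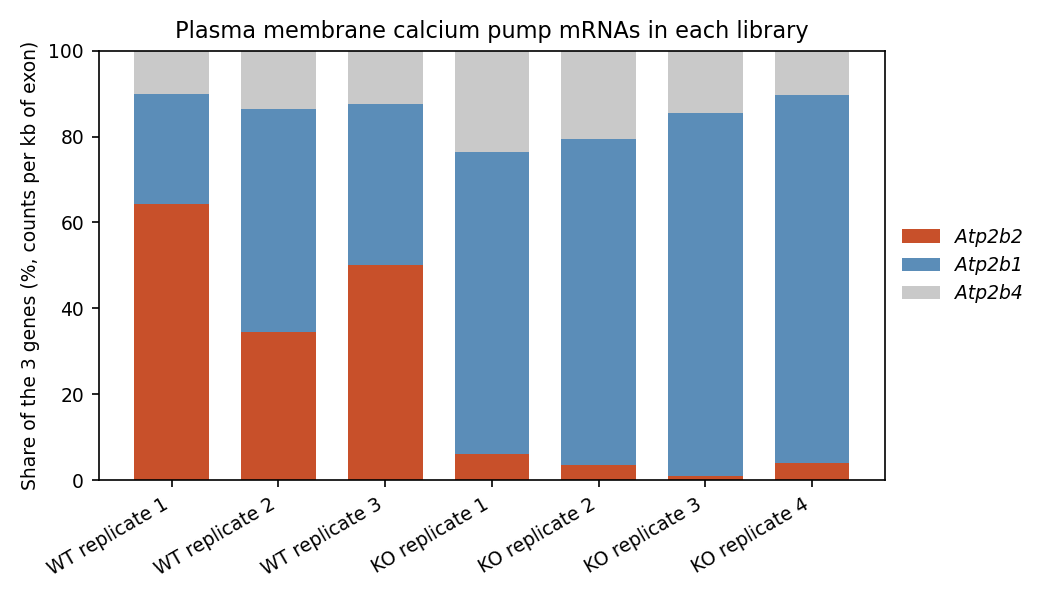
Share (%) of each plasma membrane calcium pump gene in the summed counts per kb of exon of the 3 genes, one bar per library. *Atp2b2* (orange) takes 34.6% to 64.2% in WT and 0.979% to 6.04% in *Tardbp* KO libraries.

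Of the Golgi pumps, *Atp2c2* (SPCA2; ENSMUSG00000034112, chromosome 8, 122223909 to 122281618) was the most abundant member. It is a pump of secretory epithelia that also couples to ORAI1. Its level was 736, 846 and 734 CPM in WT and 164, 391, 457 and 786 CPM in KO libraries. KO replicates 1, 2 and 3 lay below all WT libraries and KO replicate 4 lay among them, and the log2 fold change was −0.78 (SE 0.421, 95% interval −1.73 to 0.18, adjusted p = 0.327, QL test). Without KO replicate 4, whose level is that of WT, it was −1.21 (adjusted p = 0.0953), and without KO replicate 1 it was −0.50. *Atp2c1* (SPCA1), the Golgi pump of cells in general, had 197, 265 and 161 CPM in WT and 133, 228, 193 and 198 CPM in KO libraries, with overlapping groups and a log2 fold change of −0.14 (95% interval −0.66 to 0.38). In counts per kb of exon, the ratio of *Atp2c2* to *Atp2c1* was 6.49, 5.55 and 7.93 in WT and 2.14, 2.98, 4.12 and 6.87 in KO libraries. KO replicates 1 to 3 lay below all WT libraries in this ratio, and KO replicate 4 lay within the WT range. The difference in the mean log2 ratio was −0.85 (2-sided exact permutation p = 0.143, adjusted p = 0.143).

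*Atp2a2* (SERCA2, chromosome 5, 122903531 to 122952183), which fills the ER, had 364, 229 and 304 CPM in WT. The KO libraries were close together at 223, 250, 232 and 225 CPM, around WT replicate 2 and below the other WT libraries. The log2 fold change of −0.36 (95% interval −0.77 to 0.04, adjusted p = 0.283, QL test) became 0.03 with library size alone, and less the median of all genes it was −0.41 and −0.39.

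On the side of calcium entry, *Orai1* (ENSMUSG00000049686, chromosome 5, 123465083 to 123480459), the pore of store-operated entry, was lower in KO libraries. It had 179, 143 and 225 CPM in WT and 75.8, 98.1, 81.0 and 132 CPM in KO libraries. The groups did not overlap, although KO replicate 4 came close to WT replicate 2. The mean was 182 ± 41.0 CPM (SD, n = 3) against 96.7 ± 25.3 CPM (SD, n = 4), a log2 fold change of −0.92 (SE 0.231, adjusted p = 0.0897, QL test), or a level 1.89-fold lower. The log2 fold change was closer to 0 within lane 4 (−0.43, no test) and with the level of lymphocyte markers as a covariate (−0.56, adjusted p = 0.651), and without one library at a time it lay between −1.12 and −0.74. Only 7 of its 2289 exon bases are shared with another gene, *Kdm2b* on the opposite strand. The ER sensor *Stim1* (chromosome 7, 109416338 to 109585362) was low, with 20.7, 21.5 and 31.7 CPM in WT and 27.2, 34.3, 35.4 and 21.2 CPM in KO libraries. Its groups overlapped (log2 fold change 0.26, 95% interval −0.25 to 0.78), and its sign turned with scaling to the luminal markers (−0.37), while less the median of all genes it was 0.21 under TMM and 0.22 under that scaling.

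Of the signalling genes, *Pthlh* (ENSMUSG00000048776, chromosome 6, 147200623 to 147212689, minus strand) showed the other deep difference. It had 20.3, 3.07 and 19.2 CPM in WT and 1.14, 1.91, 1.27 and 0.907 CPM in KO libraries, on 103 to 645 counts in WT and 34 to 83 counts in KO libraries. The KO libraries all lay below WT replicate 2, which was itself far below the other WT libraries. The log2 fold change was −3.43 (SE 0.584, 95% interval −4.76 to −2.11), a level 10.8-fold lower, which ranked 7th from the bottom among all genes tested. The adjusted p was 0.0642 in the QL test, 6.25e-06 in its exact test and 2.88e-07 in DESeq2. Within lane 4, where WT replicate 2 is the only WT library, the log2 fold change was −1.49 (no test). *Casr*, the receptor through which the lactating cell reads blood calcium, was near absent. It had 0 counts in all 3 WT libraries and in KO replicates 3 and 4, and 2 counts in each of KO replicates 1 and 2. A count of 0 allows a level of up to 0.113 CPM in WT replicate 1, where this limit was highest (3 counts, counting error only), if counts are independent. Mates count separately here, so the limit may be higher. No comparison of *Casr* could be made at this depth, and it was not tested.

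**Figure D3:**
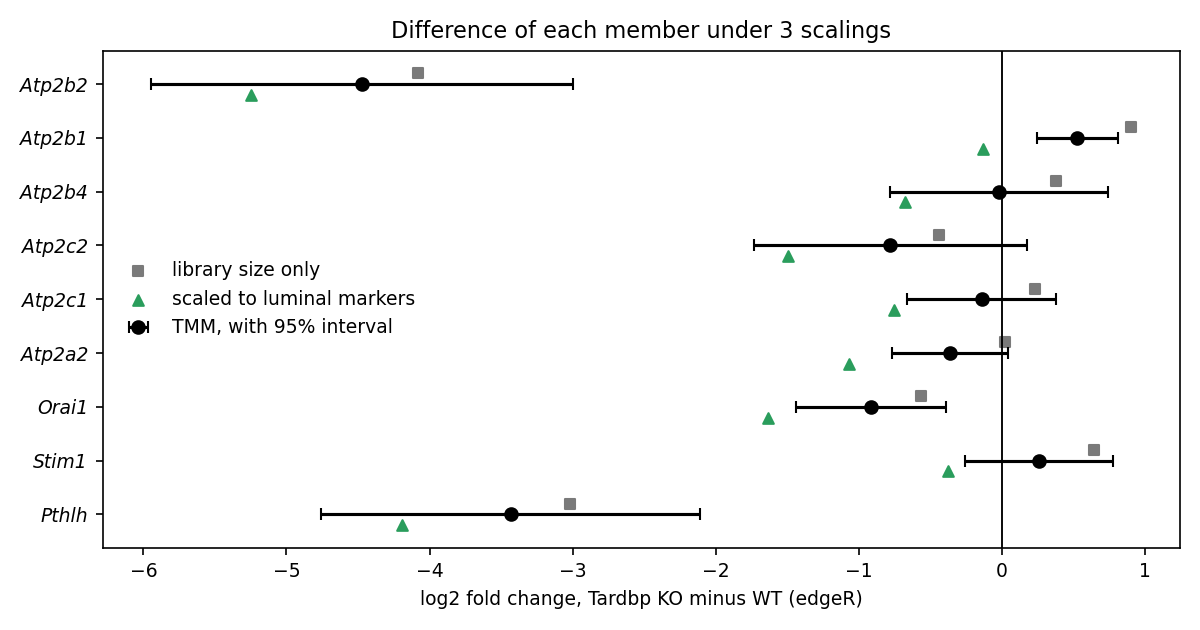
Log2 fold change (*Tardbp* KO minus WT) of the 9 tested members with TMM scaling (black, bars are 95% intervals of the QL fit), library size alone (grey squares) and scaling to luminal markers (green triangles). *Atp2b2*, *Pthlh*, *Orai1* and *Atp2c2* stay below 0 under all 3 scalings, and *Atp2b1*, *Atp2b4*, *Atp2c1*, *Atp2a2* and *Stim1* do not keep one sign, while the median of all genes moves from 0.05 to 0.42 and −0.60.

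The order of the levels per kb of exon also differed. In WT libraries the order of the mean levels was *Atp2c2* (239 CPM per kb), *Orai1* (79.6), *Atp2a2* (52.7), *Atp2c1* (37.1), *Atp2b2* (17.7), *Atp2b1* (11.8), *Pthlh* (8.86), *Stim1* (6.85) and *Atp2b4* (3.88). *Atp2c2* stood clear of the rest and *Atp2b4* lay below *Stim1* in every library pair, while each of the other neighbours in this order overlapped in range. In KO libraries *Atp2c2* was still first (140 CPM per kb, from 50.9 to 244), followed by *Orai1* (42.2), *Atp2a2* (41.0) and *Atp2c1* (33.6). *Atp2b1* came next (17.0), then *Stim1* (8.21), *Atp2b4* (3.83), *Pthlh* (0.815) and *Atp2b2* (0.800). The levels of *Pthlh* and *Atp2b2* overlapped there, and both lay below the range of *Atp2b4*. The place of *Atp2b2* may shift with the length used, 10774 exon bases against 7067 in its longest annotated protein-coding transcript.

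The 3 genes whose log2 CPM, centred on its mean over the 7 libraries, came nearest to that of *Atp2b2* were *Mfsd2a*, a carrier of lipids with long fatty acids (root mean square distance 0.749), *D830030K20Rik* (0.888) and the dopamine receptor gene *Drd4* (0.906). *Mfsd2a* had 54.2, 5.57 and 44.8 CPM in WT and 6.32, 1.01, 0.573 and 1.60 CPM in KO libraries, with WT replicate 2 low, as in *Atp2b2* and *Pthlh*.

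Caseins bind much of the calcium of milk, and *Atp2b2* was set against their mRNAs within each library. The ratio of *Atp2b2* to the 5 summed caseins per kb was lower in every KO library than in every WT library, with a log2 value of −13.5, −14.9 and −13.7 in WT and −16.7, −17.1, −18.4 and −17.6 in KO libraries. The difference of −3.44 had a 2-sided exact permutation p of 0.0286, the smallest possible, and an adjusted p of 0.0429. Between every WT and every KO library *Atp2b2* lay further apart than the summed caseins did, so this ratio also had to separate the groups. Its p is therefore no further support beside the values of *Atp2b2*. The 6 calcium-binding milk protein genes had log2 fold changes from −1.46 to −0.79 with a median of −1.25. In all 6 every KO library lay below every WT library, as in 9.62% of all genes. None of the 6 was called by the QL test. An unadjusted p under 0.05 was reached by 4, against 10.7% of all genes lower. An adjusted p under 0.1 was reached by 2, against 3.22% of all genes lower. The exact test of edgeR called 3, against 1.44% of all genes lower, and DESeq2 called 3, against 3.31% of all genes in either direction. *Csn2*, the most abundant, had 130550 ± 19659 CPM in WT (SD, n = 3) and 61935 ± 22430 CPM in KO libraries (SD, n = 4; adjusted p = 0.274). *Csn1s2b* had 820 ± 168 CPM (SD, n = 3) and 299 ± 136 CPM (SD, n = 4), a log2 fold change of −1.46 (adjusted p = 0.0797, QL test).

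A further 74 genes of calcium handling were read from the same fit, and 64 of them had enough counts to be tested. None was called by the QL test with these limits, and 23 had an unadjusted p under 0.05, 19 lower and 4 higher in KO libraries, where 10.7% of all genes were lower and 10.7% higher at this limit. An adjusted p under 0.1 was reached by 8, all lower, against 3.22% of all genes lower. With these limits, edgeR's exact test called 7, all lower, against 1.44% of all genes lower, and DESeq2 called 8, against 3.31% of all genes. The median log2 fold change was −0.16.

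Phosphate, which is packed with calcium in the casein micelle, is carried by *Slc34a2* in the apical membrane of the lactating cell. It had 1199, 489 and 1039 CPM in WT and 118, 370, 79.0 and 170 CPM in KO libraries. The groups did not overlap, and the log2 fold change was −2.30 (SE 0.519, adjusted p = 0.0806, QL test). *Slc20a1*, a sodium-phosphate carrier of most cells, had 95.2 ± 24.6 CPM (SD, n = 3) and 47.1 ± 8.89 CPM (SD, n = 4), with a log2 fold change of −1.02 (adjusted p = 0.0753). The remaining phosphate carrier, *Slc20a2*, had overlapping groups.

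Among 12 genes of calcium binding in the ER and Golgi, 7 were lower at an unadjusted p under 0.05 and none higher, where 10.7% of all genes were lower at this limit. The median log2 fold change was −0.51, against 0.05 for all genes. The Golgi membrane protein *Tmem165*, which takes part in manganese and calcium balance there, had 350, 211 and 293 CPM in WT and 91.4, 140, 73.9 and 105 CPM in KO libraries. Its groups did not overlap, and its log2 fold change of −1.47 (SE 0.249) had an adjusted p of 0.0642 in the QL test and of 2.23e-05 in its exact test. *Hspa5* (BiP), a chaperone that also holds calcium, had 1301 ± 329 CPM in WT (SD, n = 3) and 619 ± 194 CPM in KO libraries (SD, n = 4) (log2 fold change −1.07, adjusted p = 0.0949).

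Among 10 genes of calcium entry, 9 were tested, of which 3 were lower and 6 higher in KO libraries. Their median log2 fold change was 0.18, against 0.05 for all genes. At an unadjusted p under 0.05 (QL test) 1 was lower and 1 higher, where 10.7% of all genes lay on either side. *Stim2*, a sensor related to *Stim1*, had 67.7, 50.9 and 66.5 CPM in WT and 42.1, 39.0, 24.6 and 28.7 CPM in KO libraries, with no overlap and a log2 fold change of −0.88 (SE 0.209, adjusted p = 0.085, QL test). *Saraf*, a brake on store-operated entry and the most abundant of the list, had 177 ± 20.9 CPM in WT (SD, n = 3) and 148 ± 19.6 CPM in KO libraries (SD, n = 4) (log2 fold change −0.25, adjusted p = 0.399).

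Of 10 genes of ER uptake and release, 8 were tested, with 2 at an unadjusted p under 0.05 above WT and 1 below, where 10.7% of all genes lay on either side. *Atp2a1*, the pump of fast skeletal muscle, was the lowest by p, at no more than 0.298 CPM in WT and between 0.451 and 1.04 CPM in KO libraries (adjusted p = 0.123, QL test). *Atp2a3*, the pump of blood cells among others, named here after its values were seen, had 16.2, 14.2 and 21.8 CPM in WT and 69.7, 21.5, 72.4 and 21.2 CPM in KO libraries. It was high in KO replicates 1 and 3, which also had the highest lymphocyte marker sums (318 and 429 CPM), and the part of these cells in it was not tested. *Itpr2*, a release channel of the ER, had 81.4 ± 29.4 CPM in WT (SD, n = 3) and 103 ± 36.1 CPM in KO libraries (SD, n = 4).

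In the remaining lists no gene had an adjusted p under 0.1. Of 15 genes of PTHrP signalling, calcium hormones and serotonin, 14 were tested and 2 were lower at an unadjusted p under 0.05, a share near the 10.7% of all genes. The vitamin D receptor gene *Vdr* was their most abundant, at 278 ± 52.9 CPM in WT (SD, n = 3) and 276 ± 120 CPM in KO libraries (SD, n = 4), and *Cyp27b1*, whose enzyme makes active vitamin D, was at or under 1.05 CPM in all libraries (log2 fold change −1.52, adjusted p = 0.17, QL test). In 7 mitochondrial calcium genes, *Slc8b1*, which lets calcium out of mitochondria, had a log2 fold change of 0.84 (adjusted p = 0.162), and *Smdt1*, a small subunit of the uniporter, one of −0.40 (adjusted p = 0.375). The sodium-calcium exchanger *Slc8a1* stayed at or under 3.38 CPM in every library (log2 fold change 0.79, adjusted p = 0.346).

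**Figure D4:**
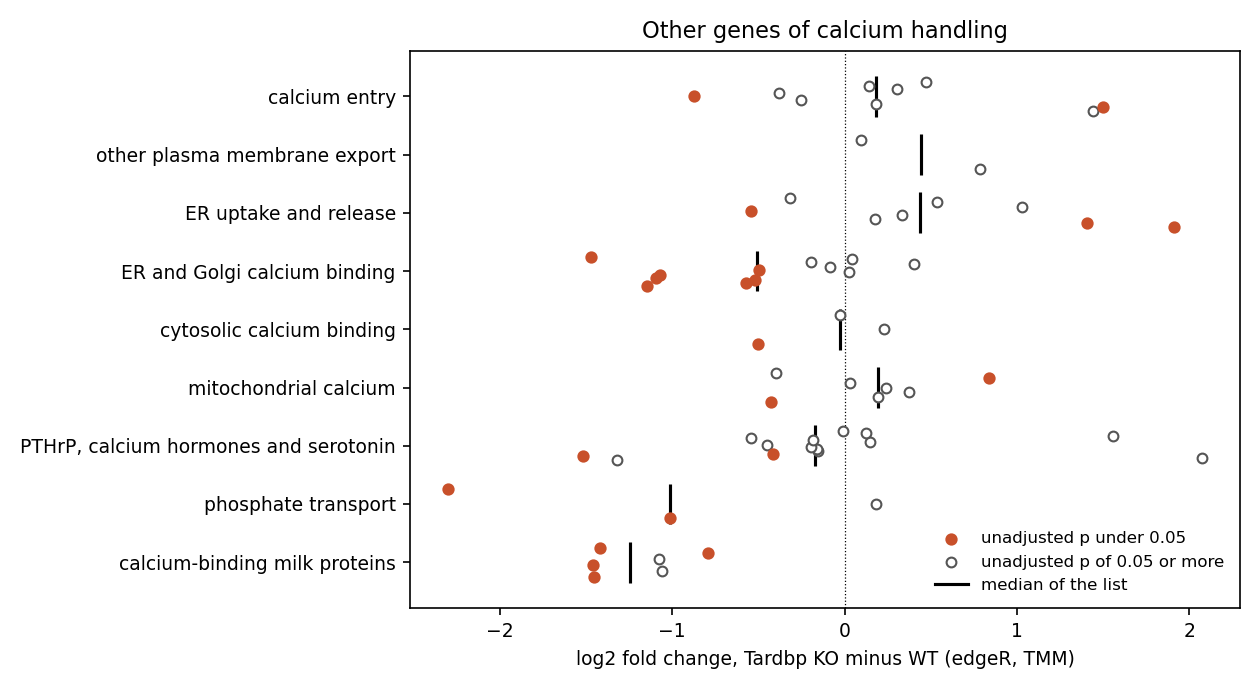
Log2 fold change (*Tardbp* KO minus WT, edgeR with TMM) of the 64 tested genes in 9 lists of calcium handling, one point per gene and a bar at each list's median. Filled points have an unadjusted p under 0.05, and the lists of milk proteins, phosphate transport and ER and Golgi binding have medians of −1.25, −1.02 and −0.51.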

How the data were processed

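Per the file headers and the study's methods, the authors mapped paired-end reads of TruSeq libraries to mouse NCBIM37 (mm9) with STAR (2.5.2a in the submitters' processing notes, another version in the methods) and counted them on exons of GENCODE vM1 with featureCounts 1.4.6-p5. The deposited values are raw counts per gene. No option for strand, pairs or multimapping reads was set, so mates count separately, and reads over several genes or places are left out. Exon coordinates of all 37310 genes equalled those of the annotation used here.

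After removal of 37 mitochondrial and 580 ribosomal genes, a minimum of 5 counts in 4 or more of the 7 libraries left 17175 genes. Genotypes, grouped by label, were tested in R 4.3.3 by edgeR 4.0.16 (TMM, quasi-likelihood test, all libraries, no covariate), and p-values were adjusted over all genes. The standard error was taken from the F statistic. The 3 within-library ratios (0.5 added to counts) were compared by a 2-sided exact permutation test of the genotype labels (35 assignments). Named genes were the members, the gene highest in mean CPM and the gene with the lowest p of each calcium list, and the 3 genes nearest to *Atp2b2*. One gene that this rule names is not reported here. The members and lists were chosen with earlier results of these data known. The scripts' tests were checked on simulated data. Alternatives were other scalings (DESeq2 1.42.0 size factors, upper quartile, library size, luminal markers), filters, tests and thresholds, a replicate block, omission of each library in turn, and lane 4 alone. A lymphocyte covariate and removal of milk protein genes were added after the data were seen. The study describes the samples as glands of 3 WT and 4 KO mice, and the labels number them as replicates. No pair of libraries agreed within counting noise.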

Additional observations from a re-analysis of the deposited data

Results flagged for a closer look

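In the KO group of 4 libraries, the level of *Itpr2* in KO replicate 1 (49.7 CPM) lay far from the other KO libraries, which had 120, 129 and 111 CPM. It was the only 1 of 28 values checked where the gap passed Dixon's limit, and chance passes it in about 1 of 20 groups.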

How the results depend on the processing

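The WT group has 3 libraries, and only lane 4 holds both genotypes. WT replicate 2 correlated more closely with KO replicates 2 and 4 than with its own group. The quasi-likelihood test called 0 members and 0 other calcium genes with the limits given. It called 2 and 2 after scaling to luminal markers (0.437% of all genes), edgeR's exact test called 2 and 7 (2.48%), DESeq2's Wald test 2 and 8 (3.31%), and an adjusted p under 0.1 without a fold limit gave 4 and 8 (5.43%). With scaling to luminal markers, where the median of all genes moved from 0.05 to −0.60, *Atp2b1* (−0.13) and *Stim1* (−0.37) changed sign. With library size alone, where that median was 0.42, *Atp2b4* (0.38), *Atp2c1* (0.23) and *Atp2a2* (0.026) did, and so did *Atp2c1* with the lymphocyte covariate (0.19) and *Atp2b4* with at least 10 counts in every library (0.0032). Leaving out 1 library at a time, *Atp2b4* lay between −0.31 and 0.18 and *Atp2c1* between −0.29 and 0.076. *Atp2c2* was −0.31 with the lymphocyte covariate and −1.49 with luminal scaling. *Atp2b2* and *Pthlh* kept their sign in all alternatives run, from −5.25 to −3.92 and from −4.19 to −1.49, and their adjusted p reached 0.573 with the lymphocyte covariate. The difference in the log2 ratio of *Atp2b2* to *Atp2b1* lay between −5.59 and −4.54 without 1 library and that to caseins between −3.85 and −3.11, both no longer past an adjusted p of 0.05, since fewer libraries allow no permutation p under 0.0667 or 0.1.

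The replicate numbers are shared by the groups. Deviations of same-numbered libraries correlated at 0.351 for replicate 1, the highest of all pairs across groups, but at 0.0941 and −0.0580 for replicates 2 and 3. As this did not hold for every number, the replicate block is an alternative only. It called 0 members and 0 other genes, gave −4.59 for *Atp2b2* (adjusted p = 0.0314, QL test), −1.09 for *Orai1* (0.0468) and −1.31 for *Atp2c2* (0.0636), and turned *Atp2b4* to 0.17.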
